A study of Ovis aries with 6 samples.

Results

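Among the endothelial cells of the Hu sheep ovary, 902 barcodes were led by CA4, PPP1R1B and PLSCR5, out of 15246 endothelial barcodes (5.92%) and 52290 deposited barcodes (1.73%). A barcode was taken when it held at least 1000 UMI (unique molecular identifiers, so that captured RNA molecules and not reads were counted) and no more than 10% mitochondrial UMI. It counted as endothelial when the sum of PECAM1, CDH5 and KDR was 5 UMI or more and exceeded the sum of DCN and PTPRC, and MMRN1, a lymphatic marker, had to stay under 3 UMI. Sums of 4 sets of class genes were then compared in each barcode, and the sum of CA4, PPP1R1B and PLSCR5 had to reach 2 UMI and to exceed each of the other sums. The other sums gave the SELP class (SELP, PLA1A and ABCG2, 7457 cells), the ESM1 class (ESM1, OIT3 and APLNR, 4590 cells) and the APLN class (APLN, TNFRSF11B and MASP1, 205 cells). A further 735 endothelial barcodes had MMRN1 at 3 UMI or more, and 1357 fell in no class.

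The study compared ovaries of Hu ewes in estrus by litter size. The HLS group held 3 ewes with litters of at least 3 lambs and the LLS group 3 ewes with litters of fewer than 2. Each ewe gave a single library of droplet-based single-cell RNA sequencing, with 43329214 to 75549906 UMI in 7992 to 9135 barcodes, so the ewe was the replicate in every comparison. Libraries of different ewes shared 13 to 28 barcode sequences in each of the 15 pairs, and none of these belonged to CA4-class cells in both libraries.

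Blood vessels change their endothelium along their length: arterial cells carry Notch and ephrin signals, capillary cells exchange nutrients, and venous cells hold adhesion molecules such as SELP that catch leukocytes. CA4 is a carbonic anhydrase anchored to the luminal surface, which speeds the conversion of carbon dioxide and bicarbonate and is well known from lung and brain capillaries. PPP1R1B (DARPP-32) inhibits protein phosphatase 1 once protein kinase A has phosphorylated it, PLSCR5 belongs to the phospholipid scramblase family, CDH10 is a cadherin, and ABCG2 is an efflux pump of the blood-brain barrier.

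The cells are called the CA4 class after their leading gene. CDH10, the marker of the label outside the rule, did not pass against the SELP class. CA4 supplied 84.6% of the class sum in these cells. The median CA4-class cell held 16 UMI of CA4, 2 of PPP1R1B and 0 of PLSCR5. CA4 was detected in 854 of the 902 cells, PPP1R1B in 626 and PLSCR5 in 340, and 578 cells (64.1%) held both CA4 and PPP1R1B. CA4 was found without PPP1R1B in 276 cells, and PPP1R1B without CA4 in 48.

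These levels chose the cells and are given as a description. CA4 reached 1684, 2187 and 2404 CPM in HLS replicates 1, 2 and 3 and 1622, 2911 and 2029.5 in LLS replicates 1, 2 and 3, where CPM is the UMI of a gene per 1000000 UMI summed over the cells of a class in an ewe. In the SELP class CA4 was 500.5 ± 135 CPM (SD, n = 6 ewes), in the ESM1 class 25.2 ± 24.9, and in the APLN class 74.6 ± 19.8 (n = 5, since LLS replicate 2 had only 4 APLN-class cells). PPP1R1B was 200.5 ± 95.8 in the CA4 class and 129 ± 57.5 in the SELP class, higher in the CA4 class in every ewe but HLS replicate 3, and it was highest in HLS replicate 1 in both. PLSCR5 was 56.1 ± 38.0 in the CA4 class and 52.5 ± 30.1 in the SELP class, so that the ewes overlapped. As a background of free RNA, barcodes with immune markers held 35.5 ± 52.9 CPM of CA4 and barcodes with stromal markers 10.5 ± 11.5. A UMI of CA4 was present in 94.7% of CA4-class cells (median 8883 UMI a cell), 67.0% of SELP-class cells (9209), 2.61% of ESM1-class cells (12310.5), 6.73% of 490 immune barcodes (2945) and 7.74% of 8750 stromal barcodes (6870.5). These shares are pooled over ewes, and HLS replicate 2 and LLS replicate 1, where CA4 was lowest in the ESM1 class, gave 1674 and 2651 of the 4590 ESM1-class cells, so that no order between ESM1-class cells and the free RNA is read from them.

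The CA4 class was a range cut from a per-cell score, with many cells near the border. In 831 of its cells (92.1%) the SELP-class sum also reached 2 UMI, with a median of 12 UMI against 19 for the CA4-class sum. The lead over the next class was 1 UMI in 123 cells and no more than 3 UMI in 339, and only 304 cells had a CA4-class sum of at least 2 times every other. In turn, 66.1% of SELP-class cells had a CA4-class sum of 2 UMI or more (38.7% to 87.6% by ewe), compared with 1.24% of ESM1-class cells (0.339% to 18.8% by ewe). ABCG2 made up most of the sum that competed with CA4: it was 1287 ± 266 CPM in the CA4 class and 1737 ± 416 in the SELP class, where SELP itself was 203 ± 57.6 and 273 ± 88.7.

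CDH10, a marker of the label that the rule did not use, was no higher than in the SELP class. It was 70.6, 36.9 and 34.2 CPM in the CA4 class of HLS replicates 1, 2 and 3, and 21.3, 71.8 and 43.4 in LLS replicates 1, 2 and 3. The SELP class of the same ewes held 78.6, 41.5, 57.2, 18.6, 78.6 and 57.3. CDH10 was lower in the CA4 class in 5 of 6 ewes, but the log2 fold change of -0.27 (SE 0.16) did not pass the test (edgeR's quasi-likelihood test over all genes, adjusted p = 0.80). Against the ESM1 class, with 3.92 ± 1.77 CPM, the log2 fold change was 3.37 (SE 0.22, adjusted p = 3.17e-10), and against the APLN class 1.48 (SE 0.27, adjusted p = 0.000544). In every ewe both the CA4 and the SELP class held more CDH10 than the ESM1 class.

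**Figure D1:**
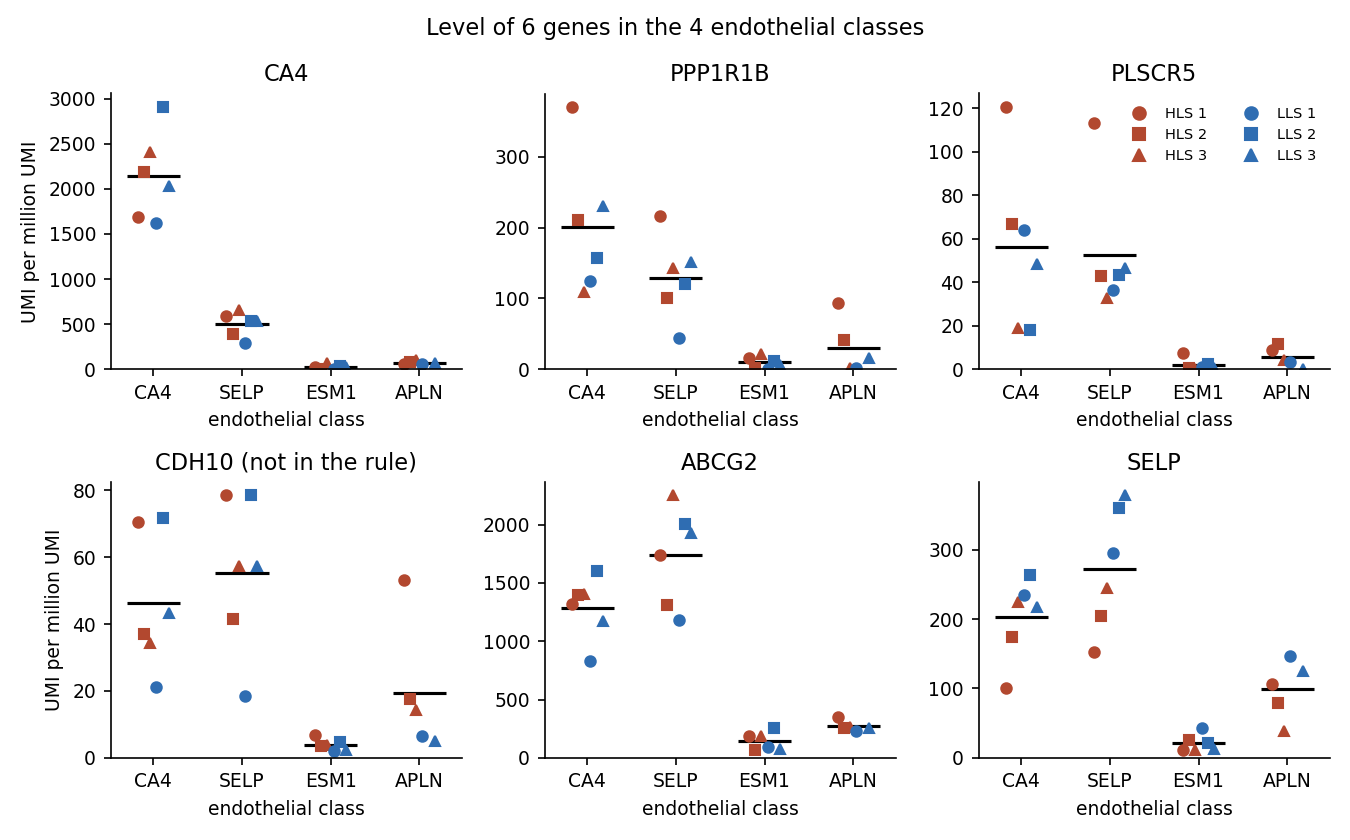
CPM (y axis, from 0) of 6 genes in the 4 endothelial classes, with a point for each ewe (red HLS, blue LLS, symbols for replicates 1 to 3) and a line at the mean. CA4 separates the CA4 class from the SELP class by the rule itself, whereas the ewes overlap between these classes for PPP1R1B, PLSCR5, CDH10, ABCG2 and SELP.

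To read a class gene in cells it did not choose, the classes were chosen again with each of the 3 genes left out in turn. With CA4 left out, only 109 cells were chosen by PPP1R1B and PLSCR5, in numbers of 10 or more in 4 ewes. CA4 in these cells was 486 and 157 CPM in HLS replicates 1 and 2 and 262 and 254 in LLS replicates 2 and 3. In the SELP class of the same ewes it was 822, 554, 798 and 690.2, but leaving a gene out moves cells led by it into the other classes. The SELP class grew from 7457 to 8326 cells without CA4, to 7714 without PPP1R1B and to 7545 without PLSCR5, so that no direction between the chosen cells and the SELP class is read from these values. With PPP1R1B left out, PPP1R1B was 189, 132 and 66.4 CPM in the 621 chosen cells of the HLS replicates and 65.2, 109 and 148 in those of the LLS replicates, against 256, 110.4, 145, 44.6, 127 and 159 in the SELP class. With PLSCR5 left out, PLSCR5 was 87.2, 46.3 and 14.4 in the 802 chosen cells of the HLS replicates and 48.6, 11.3 and 34.6 in those of the LLS replicates, against 120.4, 45.5, 33.6, 37.1, 44.1 and 47.9. The ewes of the chosen cells and of the SELP class overlapped for both genes. All 3 left-out genes stood above the ESM1 class in every ewe with a value, where they were 28.3 ± 24.9, 10.6 ± 8.57 and 2.01 ± 2.82. No test was run on these values.

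**Figure D2:**
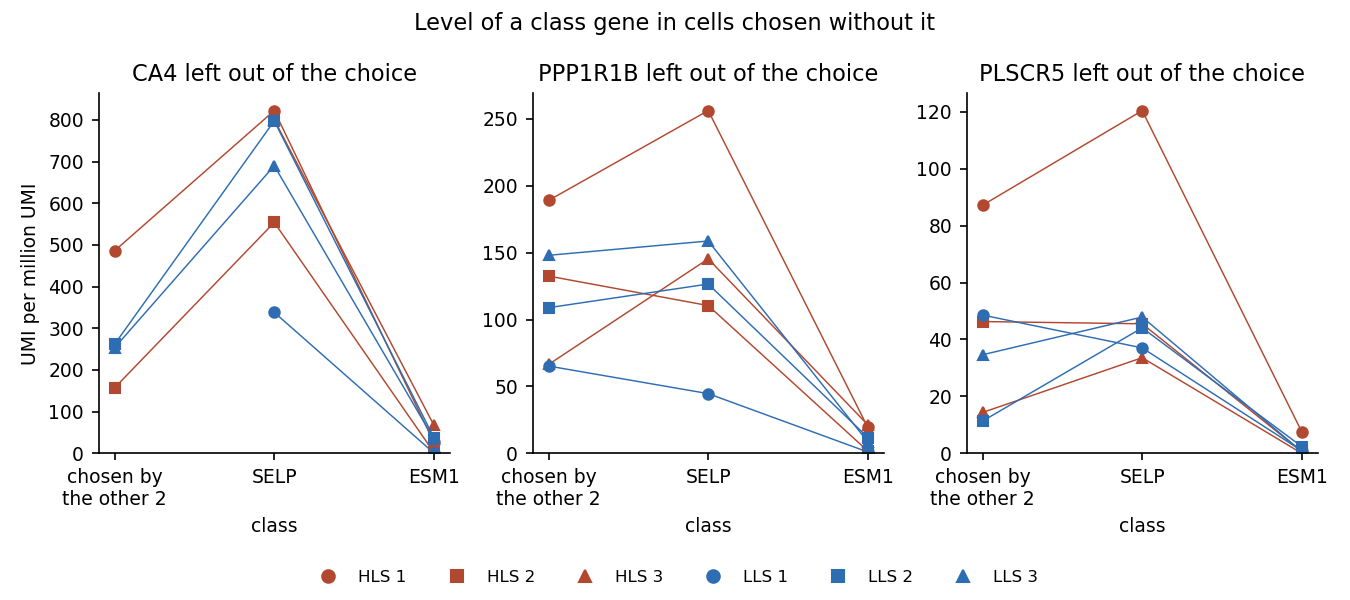
CPM (y axis, from 0) of CA4, PPP1R1B and PLSCR5 in cells chosen by the other 2 genes, in the SELP class and in the ESM1 class, with 1 line per ewe (red HLS, blue LLS). In each panel the SELP class also takes in cells led by the gene left out. All 3 genes are lower in the ESM1 class than in the chosen cells in every ewe with a value.

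The share of CA4-class cells differed widely between ewes and did not separate the groups. It was 17.0% of the endothelial barcodes in HLS replicate 1 (95% exact binomial interval 15.3 to 18.8), 2.73% in HLS replicate 2 (2.21 to 3.33) and 6.18% in HLS replicate 3 (4.87 to 7.72). It was 0.759% in LLS replicate 1 (0.516 to 1.08), 6.90% in LLS replicate 2 (5.65 to 8.32) and 8.87% in LLS replicate 3 (7.91 to 9.91), and these intervals cover counting error only. The means were 8.64% ± 7.45 in HLS and 5.51% ± 4.23 in LLS, a difference of 3.13 percentage points (two-sided exact permutation test, p = 0.7, the smallest possible being 0.1). Without HLS replicate 1 the difference turned to -1.06 percentage points. HLS replicate 1 and LLS replicate 3 together gave 604 of the 902 cells (67.0%).

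The other classes varied in the same ewes. HLS replicate 2 and LLS replicate 1, the ewes with the lowest CA4 shares, had 48.6% and 64.9% ESM1-class cells, against 2.32% to 4.39% in the other 4 ewes. Whether the tissue sampled differed between these ewes was not tested. The median depth of a CA4-class cell was 13481.5, 8384 and 10525.5 UMI in the HLS replicates and 7130, 6611 and 6635 in the LLS replicates, and 50 of the 902 cells (5.54%) resembled simulated doublets.

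**Figure D3:**
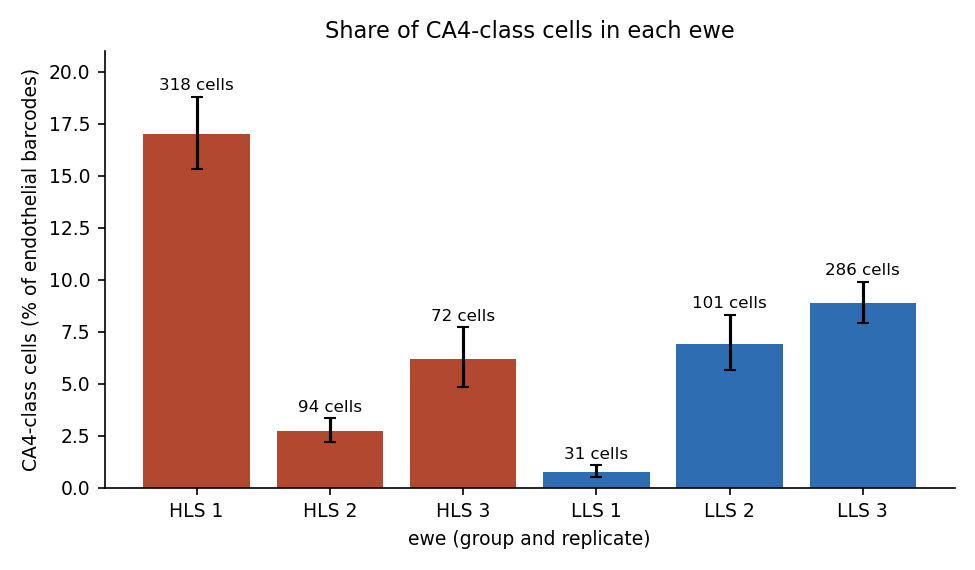
CA4-class cells as a percent of endothelial barcodes (y axis, from 0) in each of the 3 HLS (red) and 3 LLS (blue) ewes, with the number of cells and 95% exact binomial intervals as error bars. HLS replicate 1 is highest at 17.0% and LLS replicate 1 lowest at 0.759%, and both groups have ewes between 2.73% and 8.87%.

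For expression, UMI were summed per ewe and class, and 10949 genes other than those of the rule were tested with the ewe as a block. CA4-class sums held 281783 (LLS replicate 1) to 5667016 UMI (HLS replicate 1). Against the mean of the other 3 classes, 1357 genes were higher (12.4% of those tested) and 860 lower (7.85%), and without TMM scaling of the sums the split was 1168 higher and 1132 lower. Without LLS replicate 3 the split was 755 higher and 352 lower, and without HLS replicate 2 it was 946 and 479. Most of the difference from the mean lay between the CA4 class and the ESM1 and APLN classes. Against the ESM1 class 2198 genes were higher (20.1%) and 2064 lower (18.9%), and against the APLN class 1370 were higher (12.5%) and 1198 lower (10.9%). Against the SELP class 16 were higher (0.146%) and 13 lower (0.119%). With a minimum class sum of 1 UMI in place of 2 the counts were 9 higher and 2 lower. With no filter on low counts they were 60 higher and 106 lower. The median size of a log2 fold change was 0.12 against the SELP class and 0.36 against both the ESM1 and the APLN class, and 1.07%, 13.7% and 12.2% of the genes exceeded 1 on the log2 scale. The classes were cut from the same cells by a rule, so these tests measure whether a difference recurred over ewes.

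SLC2A1 and MFSD2A, which carry nutrients across the endothelium of the brain, were higher in the CA4 class than in the SELP class. SLC2A1 (GLUT1), the glucose transporter of the blood-brain barrier, was 49.4, 167 and 60.4 CPM in the HLS replicates and 163, 27.9 and 64.9 in the LLS replicates. The SELP class of the same ewes held 21.3, 51.4, 29.2, 48.6, 27.6 and 35.2. SLC2A1 was higher in 6 of 6 ewes, although LLS replicate 2 differed by little, with a log2 fold change of 1.16 (SE 0.18, edgeR adjusted p = 0.00305). It was also higher than in the ESM1 class (log2 fold change 3.12) and the APLN class (2.49). SLC2A1 was not confined to endothelium, with 24.6 ± 5.83 CPM in stromal and 25.6 ± 16.3 in immune barcodes. Both means lay above the 11.8 ± 4.42 of the ESM1 class and near the 27.9 of the CA4 class in LLS replicate 2. The call against the SELP class was lost with cells thinned to 3000 UMI and with the ewe not in the fit as a block.

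MFSD2A carries lysophosphatidylcholine with docosahexaenoic acid into the brain and restrains vesicle traffic through endothelium. It was 74.6, 137 and 139 CPM in the CA4 class of the HLS replicates and 74.5, 161 and 140.2 in the LLS replicates. The SELP class held 43.5, 73.0, 99.4, 48.3, 66.0 and 73.0, and MFSD2A was higher in 6 of 6 ewes (log2 fold change 0.84, SE 0.16, edgeR adjusted p = 0.0173). It was at 50.6 ± 32.2 in the ESM1 class and 31.5 ± 12.6 in the APLN class. When single ewes were left out, MFSD2A kept its direction and passed in 2 of 6 fits (highest adjusted p = 0.125).

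NOS3, the endothelial nitric oxide synthase, was 77.6, 139.7 and 174 CPM in the HLS replicates and 195, 189 and 107 in the LLS replicates, above the 56.2, 81.6, 71.8, 101, 78.5 and 53.0 of the SELP class (log2 fold change 0.90, SE 0.18, edgeR adjusted p = 0.0241). NOS3 was also high in other classes, at 124 ± 49.2 in the ESM1 class and 219 ± 54.3 in the APLN class, and it was lower in the CA4 class than in the APLN class (log2 fold change -0.60, edgeR adjusted p = 0.0379). The call against the SELP class held in 2 of 6 fits with an ewe left out. SLC9A3R2, a scaffold that tethers ion transporters to the cytoskeleton, was 432 ± 93.0 in the CA4 class and 204 ± 27.6 in the SELP class (log2 fold change 1.04, SE 0.16, edgeR adjusted p = 0.00263). It was 374 ± 112 in the ESM1 class and 339 ± 65 in the APLN class, and it passed neither of these tests.

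The other genes that passed against the SELP class were higher in 6 of 6 ewes as well. They included the ephrin ligand EFNA4 (log2 fold change 0.96), the transcription factor SOX13 (0.70), the adaptor SH2B2 (1.19), CASKIN2 (0.90), IGFBP6, which binds insulin-like growth factor 2 (0.84), HSPA12B (0.81), VWA1, an extracellular matrix protein (0.68), CASTOR1, an arginine sensor of mTORC1 (0.65), RASIP1, which acts in endothelial junctions and tube formation (0.49), and RAMP2, the receptor partner of CALCRL in adrenomedullin signalling (0.41). The keratin KRT3 had the largest value (1.87) at a low level of 12.9 ± 11.4 CPM against 2.99 ± 2.30, and it passed the filter on low counts only through the CA4 class, so that its call was close to fixed. LOC101116178 had 1.29. Of the 16 genes, 14 were also higher than in the ESM1 class and 8 than in the APLN class. Like NOS3, IGFBP6 was lower than in the APLN class (log2 fold change -0.48, edgeR adjusted p = 0.0390). In cells thinned to 3000 UMI, 13 of the 29 genes called in either direction were tested and 10 lost their call. The higher genes among these were SLC2A1, SLC9A3R2, NOS3, IGFBP6, HSPA12B, SOX13, VWA1 and RASIP1. Only SLC2A1, SLC9A3R2 and CASKIN2 passed whichever ewe was left out. KRT3, whose call was close to fixed, passed in the 4 of 6 such fits that tested it. CASTOR1 passed in 0 of 6 such fits and was also lost with doublets removed (edgeR adjusted p = 0.0561) or with another scaling, and RASIP1 and RAMP2 passed in 1 of 6. The fits made 10 calls in place of 29 without LLS replicate 3, 11 without LLS replicate 2 and 17 without HLS replicate 3.

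**Figure D4:**
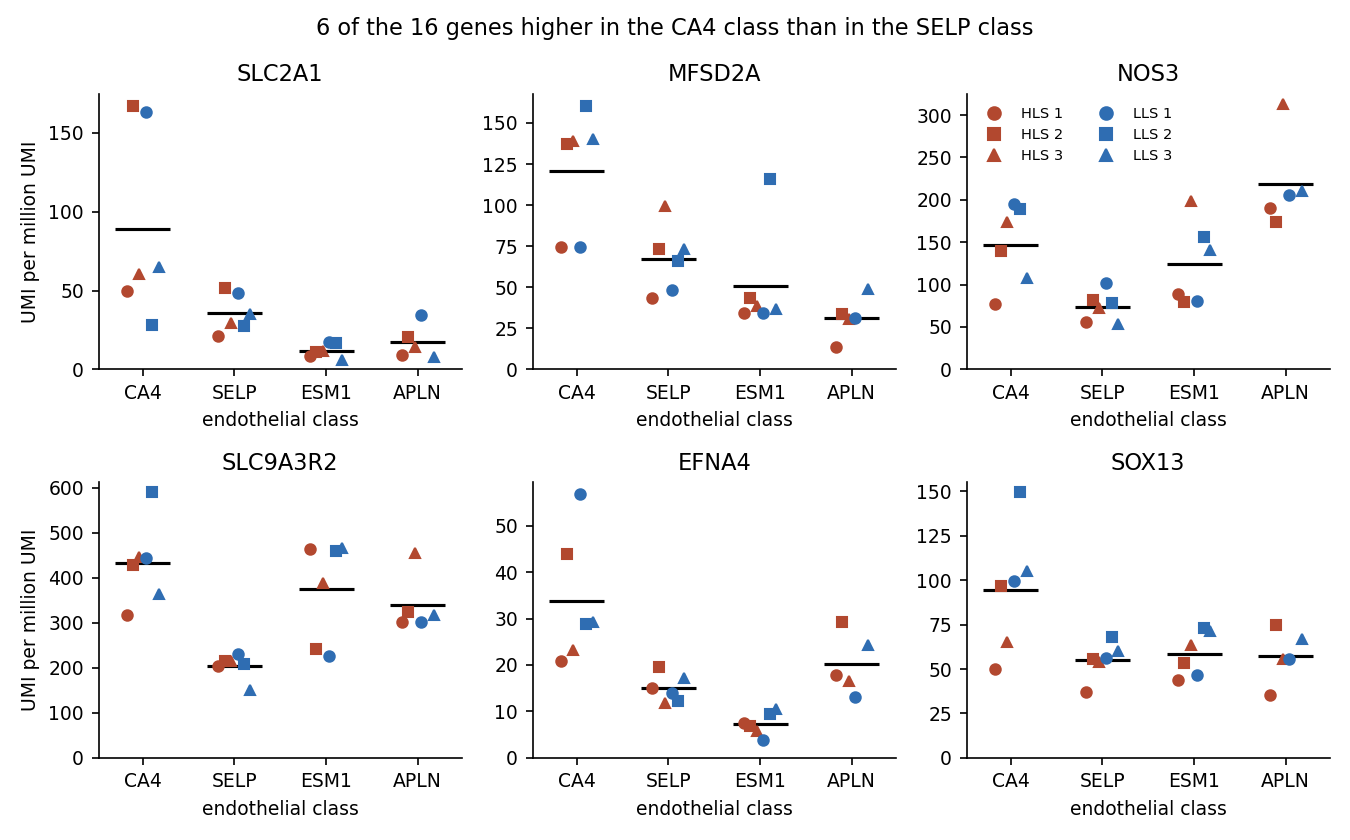
CPM (y axis, from 0) of 6 of the 16 genes that passed against the SELP class, in the 4 classes, with a point for each ewe (red HLS, blue LLS) and a line at the mean. SLC2A1 and MFSD2A have their highest mean in the CA4 class, whereas NOS3 is highest in the APLN class.

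Of the 13 genes lower in the CA4 class than in the SELP class, 9 passed the filter on low counts only through the SELP class, so that their calls were close to fixed and are given as a description. They were the complement genes C1QA, C1QB and C1QC, the folate receptor FOLR2, the scavenger receptor MSR1, the complement receptor C5AR1, the adaptor TYROBP and GPNMB, which are known from macrophages, and LOC100101238. C1QB was 0.353, 0 and 3.02 CPM in the HLS replicates and 0, 5.98 and 0 in the LLS replicates of the CA4 class, and 8.22, 34.2, 103, 21.9, 25.1 and 4.86 in the SELP class. The summed level of the 8 immune markers was 10.8 ± 11.1 in the CA4 class and 88.9 ± 94.8 in the SELP class, with 275 in HLS replicate 3, and C1QA was its most abundant gene in both. None of the 8 markers was at 0 in every ewe, and the part of immune cells or their RNA in these differences was not tested.

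The other 4 lower genes were CTSB, GRK5, OSBPL6 and OXT. CTSB, a lysosomal protease, was 45.9 ± 9.05 CPM in the CA4 class and 106 ± 59.0 in the SELP class (log2 fold change -1.05, edgeR adjusted p = 0.0119). Its SELP-class mean was carried by HLS replicate 3 (201) and LLS replicate 2 (159), where LOC100101238 was also highest, at 260.1 and 353. The call was lost without LLS replicate 2 and in 6 other settings. GRK5, a kinase of G protein-coupled receptors (-0.83), and the oxysterol-binding OSBPL6 (-0.95) passed in 1 and 3 of 6 fits with an ewe left out. The oxytocin gene OXT, known from luteal cells, had a log2 fold change of -2.67 and was 161 CPM in the SELP class of LLS replicate 3 against 1.74 to 5.23 in the other ewes. It no longer passed once doublets were removed (adjusted p = 0.418).

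The other lists of foreign markers are given by their summed levels. The level was 195 ± 117 in the CA4 class and 214 ± 68.5 in the SELP class for 8 stromal and theca genes (COL1A1 the most abundant), 118 ± 42.8 and 106 ± 15 for 10 genes of pericytes and smooth muscle, 74.4 ± 34.2 and 66.1 ± 35.4 for 6 granulosa genes, and 364 ± 193 and 383 ± 162 for 7 lymphatic genes, mostly LYVE1. It was 443 ± 59.3 and 361 ± 65.3 for 5 luteal and steroid genes, mostly SCARB1, and higher in the CA4 class in every ewe but LLS replicate 3. It was 9.47 ± 7.70 and 16.1 ± 13.1 for 6 epithelial genes, and 2.70 ± 6.13 and 0.916 ± 1.05 for 4 Schwann cell genes, with 15.2 in the CA4 class of HLS replicate 1.

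Genes were then named by a rule of size and agreement over ewes: 42 genes lay above every other class in every ewe (0.384% of those tested) and 23 below (0.210%). The 15 named high genes had log2 fold changes of 0.82 to 2.37 against the mean of the other classes. SYT15, a synaptotagmin, had the largest (2.37, SE 0.27), with 44.4 ± 11.7 CPM in the CA4 class, 31.1 ± 12.0 in the SELP class and 3.92 ± 4.90 in the ESM1 class. THBD (thrombomodulin), which turns thrombin to the activation of protein C, was the most abundant, with 666 ± 168 in the CA4 class and 470.1 ± 58.4 in the SELP class. HOPX (124 ± 65.8 against 80.5 ± 46.5 in the SELP class), the matrix protein MATN2 (199 ± 25.6 against 172 ± 42.5), ADIRF (211 ± 61.4 against 124 ± 43.6) and the tight junction protein OCLN (36.7 ± 5.14 against 31.4 ± 7.14) were also in this group. DBNDD2, TM6SF1, CBFA2T3, SCARF2, JCAD, B4GALT1, SLC2A1, MFSD2A and EFNA4 completed it. Only the last 3 of these passed against the SELP class alone.

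The 10 named low genes had log2 fold changes of -3.21 to -0.34. The secreted nuclease DNASE1L3 was 4.65 ± 3.65 CPM in the CA4 class, 11.2 ± 7.80 in the SELP class and 67.8 ± 44.9 in the ESM1 class. The carboxypeptidase CPM was 1.60 ± 0.982, 6.22 ± 3.33 and 51.8 ± 32.3. IGF2R, which clears insulin-like growth factor 2, was 73.1 ± 31.6 in the CA4 class and 109 ± 31.2 in the SELP class. GRK5, CILK1, RNF170, LCORL, ELAC1 and TMEM263 were also in this group, and of the 10 GRK5 alone passed against the SELP class.

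Most barrier genes were higher than in the ESM1 and APLN classes. Of 13 junction and barrier genes tested, 2 were higher than in the SELP class, SLC2A1 and MFSD2A, where 0.146% of all genes were. The median log2 fold change there was 0.25 against -0.00418 over all genes. Against the ESM1 class 10 were higher and 1 lower (median 1.15), where 20.1% and 18.9% of all genes were. Against the APLN class 8 were higher (median 0.58), where 12.5% of all genes were. The drug efflux pump ABCB1 was 615 CPM in the CA4 class, 583 in the SELP class, 103 in the ESM1 class and 166 in the APLN class, with log2 fold changes of 0.08, 2.60 and 1.93. The tight junction gene CLDN5 was 508, 422, 242 and 158 in the same order.

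Partners of CA4, PPP1R1B and PLSCR5 were listed by function, and their counts are to be read against the 20.1% of all genes higher and 18.9% lower than in the ESM1 class. Against the SELP class, where 0.146% of all genes were higher and 0.119% lower, no member of these lists passed. Of 7 tested genes of acid, bicarbonate, lactate and water transport 2 were lower than in the ESM1 class, the lactate exporter SLC16A3 and the anion exchanger SLC26A6. Of 25 genes of cAMP, protein kinase A and protein phosphatases 6 were higher and 4 lower than in the ESM1 class, close to the shares over all genes, with the phosphodiesterase PDE4B (log2 fold change 1.16) and the calcineurin subunit PPP3CA (0.95) higher and PDE10A (-2.11) lower. Of 10 scramblases and flippases, 5 were higher and 1 lower than in the ESM1 class, with the flippase ATP10A (2.16) and PLSCR1 (1.21) among the higher. Of 8 cadherins and protocadherins, 4 were higher and 3 lower than in the ESM1 class, with CDH2 (2.86) among the higher.

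Both arterial and venous markers were among the genes higher than in the ESM1 class. Of 18 arterial genes none passed against the SELP class, although their median log2 fold change was 0.48. Against the ESM1 class 6 were higher and 1 lower (median -0.06; 20.1% and 18.9% of all genes), with the kinase BMX (3.43) and the matrix gene LTBP4 (2.73) higher and the ephrin EFNB2 (-0.71) lower. Against the APLN class 6 were higher and 1 lower (median 0.91; 12.5% and 10.9% of all genes). BMX was 18.8 ± 21.5 CPM in the CA4 class, with 60.3 in LLS replicate 1. In HLS replicate 1 it was 1.59, under the 2.51 of the ESM1 class, and it was above that class in every other ewe. Of 4 venous genes outside the rule, 3 were higher than in the ESM1 class, namely ACKR1 (4.79), the venous regulator NR2F2 (0.57) and VWF (2.08), and none passed against the SELP class. Against the APLN class none of the 4 was higher and 2 were lower, NR2F2 (-0.53) and the ephrin receptor EPHB4 (-0.89). The Notch ligand JAG1 (0.85) and DLL1 (1.55) were among the 4 of 14 Notch genes that were higher than in the ESM1 class, with none lower, beside 20.1% higher over all genes.

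Growth and matrix genes were low, and early response genes high, relative to the ESM1 class, where 18.9% of all genes were lower and 20.1% higher. All 14 cell cycle genes were lower (median log2 fold change -1.49). MKI67 was 9.71, 7.03 and 206 CPM in the CA4 class of the HLS replicates and 10.6, 8.98 and 95.9 in the LLS replicates, so that HLS replicate 3 and LLS replicate 3 carried the mean of 56.4 (179 ± 110.2 in the ESM1 class). TOP2A was highest in the same ewes, at 283 and 141, and 0 to 13.4 in the others. Against the APLN class 10 of the 14 were lower (10.9% of all genes), and against the SELP class none passed. Of 14 basement membrane genes 11 were lower than in the ESM1 class (median -1.12) and 6 than in the APLN class, with COL4A1 at 2263 against 6256 in the ESM1 class and 2493 in the SELP class. Of 15 immediate early genes, which also respond to tissue dissociation, 13 were higher than in the ESM1 class and 14 than in the APLN class (12.5% of all genes), and FOS was 2926, 2703, 1603 and 1990.1 CPM in the CA4, SELP, ESM1 and APLN classes. Whether dissociation had a part in this was not tested. In the WNT list 7 of 10 genes were higher and 1 lower than in the ESM1 class, with AXIN2 (1.73) and APCDD1 (2.02), targets that limit the pathway, higher and TSPAN12 (-1.62) lower. None of these lists had a gene that passed against the SELP class.

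Levels were also followed along the CA4 score. Endothelial cells with a joint CA4 and SELP sum of 5 UMI or more were sorted into 6 ranges by the part of the CA4 sum, a description with genes and ranges chosen after earlier values were seen. SLC2A1 was 23.8, 29.3, 43.1, 77.3, 88.4 and 89.3 CPM from the lowest to the highest range, and the border at 50% lies between the values 77.3 and 88.4. The 77.3 ± 67.7 just below the border rested on HLS replicate 2 (131) and LLS replicate 1 (188), while HLS replicate 1, HLS replicate 3 and LLS replicate 2 held 27.4, 28.8 and 25.1 there. In the highest range the latter 3 ewes held 68.3, 99.9 and 52.3, so that the ewes differed in where SLC2A1 was high. MFSD2A was 49.5, 55.7, 78.9, 116, 119.9 and 122 in the 6 ranges, and just below the border it was 52.0 in HLS replicate 1 and 90.5 to 156 in the other 5 ewes. NOS3 was 85.5, 68.5, 70.9 and 97.5 below the border and 134 and 160.5 above it, and SLC9A3R2 was 219, 176, 212, 268, 383 and 522. CDH10 had its highest mean in the middle, with 24.7 in the lowest range, 71.0 at 25 to 40% and 45.3 in the highest. ABCB1 and VWF likewise had their highest means at 25 to 40%, at 717.5 and 819.9, and NR2F2 was 222 in the lowest and 163 in the highest range. LLS replicate 1 had only 19 and 12 cells in the 2 highest ranges. The ranges were not limited to the CA4 and SELP classes, so that the lowest range can hold cells led by another sum. LLS replicate 1 gave 803 of the 2527 cells of that range, with CDH10 at 5.18 and ABCB1 at 148. The part of other classes in these values was not tested.

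**Figure D5:**
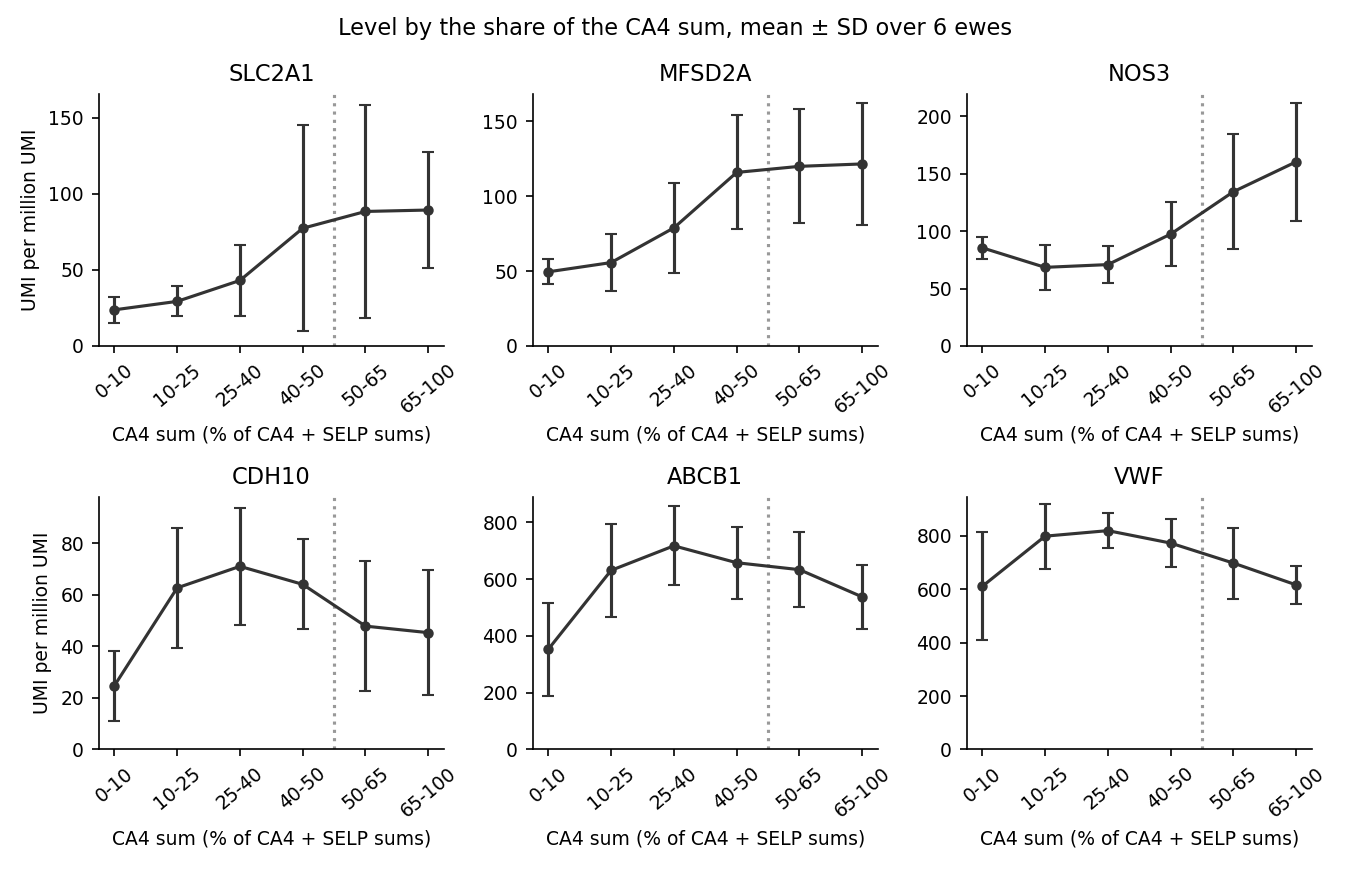
Mean CPM (y axis, from 0; error bars SD over 6 ewes) of 6 genes in endothelial cells sorted by the CA4 sum as a percent of the CA4 and SELP sums (x axis), with the class border as a dotted line. SLC2A1 and MFSD2A are at 23.8 and 49.5 in the lowest range and at 77.3 (SD 67.7) and 116 just below the border, and CDH10, ABCB1 and VWF are highest at 25 to 40%. The cells are not limited to the CA4 and SELP classes.

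The cells next to the limits of the rule are given as pooled values. CDH10, SLC2A1 and MFSD2A were 57.6, 58.9 and 79.5 CPM in the 339 members with a lead of 1 to 3 UMI and 67.1, 62.1 and 84.9 in the 525 cells just outside, tied or behind by up to 2 UMI. The 27 members with a sum of exactly 2 UMI held 6.44, 38.6 and 19.3, and the 51 cells with a sum of 1 held 12.8, 44.7 and 12.8. With median depths of 4330 and 5183 UMI a cell, these small sets rest on few molecules, so that no direction is read from them.

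Between HLS and LLS ewes no gene passed in the CA4 class. Of 8480 genes tested, 0 were called in either direction by edgeR (0% of those tested; 600 at an unadjusted p under 0.05, smallest adjusted p = 0.190), whereas DESeq2 called 3. After TMM scaling the groups did not overlap for 1113 genes (13.1%), and leaving the scaling out moved the median log2 fold change of all genes from 0.03 to -0.13. The 3 genes of lowest p were the collagen COL12A1, the sodium-calcium exchanger SLC8A1 and the fibrillin FBN1, all lower in HLS, and they were those called by DESeq2. COL12A1 was 31.4, 51.9 and 60.4 CPM in the HLS replicates and 192, 133 and 149 in the LLS replicates (log2 fold change -1.61, SE 0.24, edgeR adjusted p = 0.190). SLC8A1 was 0.353, 1.76 and 4.03 against 71.0, 17.0 and 23.6 (log2 fold change -4.39, SE 0.75, edgeR adjusted p = 0.378). SLC8A1 passed the filter on low counts only through the LLS ewes, so that its values are given as a description. FBN1 was 40.9, 58.9 and 75.5 against 181, 164 and 122 (log2 fold change -1.28, SE 0.23, adjusted p = 0.438).

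Of the lists, the 16 arterial genes tested had the lowest median among those with at least 10 genes, a log2 fold change of -0.90 against 0.03 over all genes, and after scaling the ewes did not overlap for 5 of them (13.1% of all genes), HEY1, EFNB2, SEMA3G, BMX and JAG1. BMX was 1.59, 7.91 and 6.04 CPM in the HLS replicates and 60.3, 18.0 and 19.0 in the LLS replicates (log2 fold change -2.57, SE 0.62, edgeR adjusted p = 0.686), and the connexin GJA5 was 8.65, 24.6 and 10.1 against 227, 24.9 and 34.7 (adjusted p = 0.686). LLS replicate 1, with 31 cells, was the highest for both. BMX and SEMA3G were among the arterial genes that passed the filter on low counts only through the LLS ewes. The median and the count without overlap of the arterial list are therefore given as a description. For CDH10 (log2 fold change 0.22), SLC2A1 (0.39) and MFSD2A (-0.06) the groups overlapped. The stromal genes tested, COL1A1, COL1A2 and LUM, had log2 fold changes of 1.18, 1.40 and 0.82 without passing. COL1A1 was 69.9, 193 and 85.5 CPM in the HLS replicates and 21.3, 75.8 and 53.3 in the LLS replicates, so that the groups overlapped before scaling and not after it, and the 4 pericyte and smooth muscle genes tested had a median of 0.86. Of these MYH11, a smooth muscle myosin, was 25.1, 27.2 and 47.3 against 3.55, 20.9 and 9.10 (log2 fold change 1.52, edgeR adjusted p = 0.686), without overlap. MYH11 passed the filter on low counts only through the HLS ewes. For RGS5 (log2 fold change -0.55, lower in HLS), MCAM (0.71) and ACTA2 (1.01) the groups overlapped. The part of stromal or mural RNA in the other values was not tested. Whether the difference between the CA4 class and the mean of the other classes differed between HLS and LLS was tested, and 0 of 10949 genes passed (0%; 393 at an unadjusted p under 0.05, edgeR smallest adjusted p = 0.155).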

How the data were processed

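Single-cell suspensions of ovaries of 6 Hu ewes (3 HLS, 3 LLS) had been sequenced with the 10x Chromium 3' v3 kit. Reads were mapped by the authors in Cell Ranger 5.0.0, which runs STAR, and the deposited matrices hold raw UMI counts of 30574 genes. The genome build is not given in the sources used here. UMI counted at transcript ends carry no gene length.

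Members, classes and the 36 gene lists were chosen with earlier results of these data known. Cells were classed by the rule without doublet removal. UMI were summed per ewe and class where the ewe had at least 10 cells of it, the 18 genes of the rule and 37 mitochondrial genes were left out, and genes were filtered on low counts, scaled by TMM (0.795 to 1.10) and compared in edgeR 4.0.16 (R 4.3.3) by quasi-likelihood F tests, the ewe being a block for classes. Tests were adjusted by Benjamini-Hochberg with a threshold of 0.05. DESeq2 1.42.0 was an alternative. Printed levels are CPM (UMI per 1000000 UMI) without TMM. Named were the 15 highest and 10 lowest genes by log2 fold change against the mean of the other classes among those past the threshold, on the same side of every class in every ewe and with at least 20 CPM in the higher class, CDH10, list genes, and the 3 genes of lowest p between HLS and LLS. A gene named by this rule is not reported here. Genes that passed against the SELP class were named after their values were seen. Shares were compared by an exact permutation test. Ewes were grouped as labelled. The fit was also run on simulated data, and the outcome is not reported here. Python 3.11.15, numpy 2.4.6, scipy 1.17.1, pandas 2.3.3, scikit-learn 1.9.0 and matplotlib 3.10.9 were used.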

Additional observations from a re-analysis of the deposited data

How the results depend on the processing

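The difference in the share between HLS and LLS ranged from -1.06 (without HLS replicate 1) to 6.09 percentage points over the fits with an ewe left out, and it was 0.456 with a class sum of 2 times every other. The remaining settings kept its sign. Against the mean of the other classes 2217 genes passed, and 642 with cells thinned to 3000 UMI, 877 with a class sum of 2 times every other, 1185 with no replicate block (the ewe not in the fit), and 1107 (without LLS replicate 3) to 2336 with an ewe left out, 1425 of them without HLS replicate 2. Against the SELP class, where all alternatives were added after seeing the data, 29 passed, and 11 with a minimum sum of 1, 4 in thinned cells, 90 with a sum of 2 times every other, 166 with no filter on low counts, 69 with DESeq2, 5 with no replicate block, and 10 (without LLS replicate 3) to 34 with an ewe left out (17 without HLS replicate 3, 11 without LLS replicate 2). TYROBP turned to 0.31 at a minimum sum of 1. Between HLS and LLS 0 genes passed, and 1 in thinned cells, 3 with a sum of 2 times every other, 109 with no filter on low counts and 3 with DESeq2. The cause was not tested. Ewes of the same number did not deviate together (correlations of -0.07, -0.03 and 0.08), and a replicate block for the number left 0 genes and the share difference of 3.13 percentage points (exact sign-flip p = 1). CA4-class cells without PPP1R1B were not tested against those with PPP1R1B alone, since the latter reached 10 cells in a single ewe.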

Other observations

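With a stricter choice, in which a class sum had to reach 2 times every other, 304 CA4-class cells were left (15 to 107 per ewe), and 55 of 9854 genes were higher (0.558%) and 35 lower (0.355%) than in the SELP class chosen the same way. This choice was examined after the data had been seen. Of 17 arterial genes 3 were then higher, the kinase BMX, the Notch ligand JAG1 and DKK2, an antagonist of WNT signals, with a median log2 fold change of 0.99 over the 17 against -0.02 over all genes. BMX was 1.64, 24.9 and 29.3 CPM (UMI per 1000000) in HLS replicates 1, 2 and 3 and 136, 60.6 and 45.5 in LLS replicates 1, 2 and 3, and the SELP class held 2.07 to 11.4 (log2 fold change 2.54, SE 0.46, edgeR adjusted p = 0.00591). It was lower than in the SELP class in HLS replicate 1, which gave 92 of the cells, and higher in the other 5 ewes. JAG2, another Notch ligand, was 66.0 ± 35.3 against 28.5 ± 5.91 (log2 fold change 1.14, edgeR adjusted p = 0.0175). SLC2A1 (1.44), MFSD2A (1.09) and NOS3 (1.22) passed again. PODXL, which coats the luminal surface, and RGCC, a marker of the capillary list, were also higher (0.78 and 0.67). The growth factor BMP4 (-1.12), the co-receptor TGFBR3 (-1.37) and the coagulation factor F8 (-1.12) were lower.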
